A study of Mus musculus with 2 samples.

Results

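The barcodes described here are hepatocyte barcodes that held more Cyp2e1 than Cyp2f2 transcripts, the pattern of hepatocytes around the central vein. They were taken from 2 single-cell RNA libraries of liver non-parenchymal cells, from male mice aged 5 months on standard chow. One library is labelled Hep-ADKWT (WT), the control, and the other Hep-ADKTg (Tg), from mice that overexpress adenosine kinase (Adk) in hepatocytes under the albumin promoter. How many mice went into each library is not stated in the labels, so genotype, animal and preparation cannot be told apart. Hepatocytes were not the target of the preparation, and those captured are the ones left in the non-parenchymal fraction.

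A barcode was a member when it met 4 conditions. It held at least 5000 unique molecular identifiers (UMIs, each standing for 1 captured RNA molecule). At most 20% of them came from mitochondrially encoded genes. At least 5% came from 8 hepatocyte genes (Alb, Apoa1, Apoa2, Apoc1, Apoc3, Ttr, Fabp1 and Serpina1c). Cyp2e1 UMIs outnumbered Cyp2f2 UMIs. The rule found 288 members among 33125 barcodes: 62 of 15663 in the library labelled WT and 226 of 17462 in that labelled Tg. The mirror rule, more Cyp2f2 than Cyp2e1, took 92 and 895 barcodes, and 14 and 24 hepatocyte barcodes were tied. Close to the last condition, Cyp2e1 exceeded Cyp2f2 by only 1 to 5 UMIs in 12 of 62 and 32 of 226 members. Against these, 14 and 45 barcodes fell short by as much. Between 5000 and 5500 UMIs lay 6 and 17 members, and 12 and 28 otherwise eligible barcodes lay between 4500 and 5000. The libraries shared 88 barcode sequences, and 0 of these were members in both. Values are given in the order WT, Tg.

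Hepatocytes divide their work along the path of blood through the liver lobule. Pericentral cells, at the outflow, carry out much of the cytochrome P450 metabolism and capture ammonia as glutamine, and Wnt signals from the central vein are known to maintain this programme. Periportal cells, at the inflow, specialise in urea synthesis, gluconeogenesis and secretion of plasma proteins. Cyp2e1 (chr7:140763739-140774987) encodes an ethanol- and acetaminophen-oxidising P450 of the pericentral zone, and Cyp2f2 (chr7:27119909-27133660) a P450 of the periportal zone. Oat (ornithine aminotransferase, chr7:132557478-132576398) and Glul (glutamine synthetase, chr1:153899944-153909723) mark the cells nearest the central vein. Gene positions are GENCODE M21 on GRCm38.

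Promoter sequences are shown for genes that separated the members from their Cyp2f2-dominant counterparts. Each run is the 250 bases before the RefSeq transcription start (GRCm38.p6). Capitals mark CTTTGA or its reverse complement TCAAAG, the core of the site bound by the TCF/LEF factors of Wnt signalling. This core occurs on either strand in 13.8% of 32851 promoters of the same length. The windows are chr7:140763569-140763818 (plus strand), chr9:57683656-57683905 (minus strand), chr19:39286835-39287084 (plus strand) and chr7:27119705-27119954 (plus strand).
Cyp2e1: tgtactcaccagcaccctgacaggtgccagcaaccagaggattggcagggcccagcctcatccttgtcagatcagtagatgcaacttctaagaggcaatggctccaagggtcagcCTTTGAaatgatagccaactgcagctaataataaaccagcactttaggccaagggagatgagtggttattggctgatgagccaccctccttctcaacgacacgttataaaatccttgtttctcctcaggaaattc
Cyp1a2: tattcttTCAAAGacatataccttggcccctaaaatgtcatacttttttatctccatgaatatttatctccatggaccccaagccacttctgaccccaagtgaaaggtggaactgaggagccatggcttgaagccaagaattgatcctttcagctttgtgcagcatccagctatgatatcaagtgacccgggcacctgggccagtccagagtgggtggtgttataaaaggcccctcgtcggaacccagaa
Cyp2c29: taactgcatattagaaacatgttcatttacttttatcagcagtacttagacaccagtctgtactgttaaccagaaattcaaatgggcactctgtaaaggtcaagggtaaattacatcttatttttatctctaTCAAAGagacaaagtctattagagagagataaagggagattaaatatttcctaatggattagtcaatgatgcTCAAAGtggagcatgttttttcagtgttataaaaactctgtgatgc
Cyp2f2: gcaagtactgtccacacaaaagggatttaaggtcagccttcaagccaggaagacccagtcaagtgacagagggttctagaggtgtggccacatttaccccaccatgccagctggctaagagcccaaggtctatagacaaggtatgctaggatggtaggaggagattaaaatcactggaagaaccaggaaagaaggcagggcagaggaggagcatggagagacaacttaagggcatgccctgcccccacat
Cyp2e1, Cyp1a2 and Cyp2c29 held the core in this window and Cyp2f2 did not. Among the 10 genes highest in the members by the rule given below, 7 had a promoter entry and 3 of these held it (Cyp2c29, Lect2 and Cyp1a2). Among the 10 lowest, 8 had an entry and 2 held it (Hal and Hpx).

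Adk (chr14:21052574-21448569), the kinase that turns adenosine into AMP and the gene targeted in these mice, was lower in the members of the library labelled Tg. It stood at 889 (818 to 964) and 542 (522 to 563) CPM (UMIs of the gene per 1000000 UMIs summed over members), a log2 ratio of Tg over WT of -0.71 (-0.84 to -0.58). Brackets hold exact 95% intervals, which cover counting error and not variation between animals. In Cyp2f2-dominant barcodes with at least 5% mitochondrial UMIs, Adk stood at 459 and 524 CPM. These libraries count transcript 3′ ends, and which 3′ end the transgene carries is unknown here, so transgene RNA could go uncounted. Adk therefore checks neither label, and each library is called by its label.

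The 2 libraries differed most in how much mitochondrial RNA their members held. Mitochondrially encoded genes supplied a median of 0.142% of a member's UMIs in the library labelled WT and 11.3% in that labelled Tg, although hepatocytes are known to be rich in mitochondria. Under 2% lay 52 of 62 and 62 of 226 members (83.9% and 27.4%), called mitochondria-poor below. At 5% or more lay 6 and 141, called mitochondria-rich. Another 4 and 23 lay between. Whether the poor barcodes are whole cells was not tested, and they are not called intact here. Median depth was 7374 and 19547 UMIs over all members, 7092 and 7101.5 in the mitochondria-poor, and 24340 and 29946 in the mitochondria-rich. Upper quartiles and highest depths still differed in the poor members, at 9104 and 11284.5 and at 38378 and 63247 UMIs. Member UMIs summed to 654921 and 5078616.

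**Figure D1:**
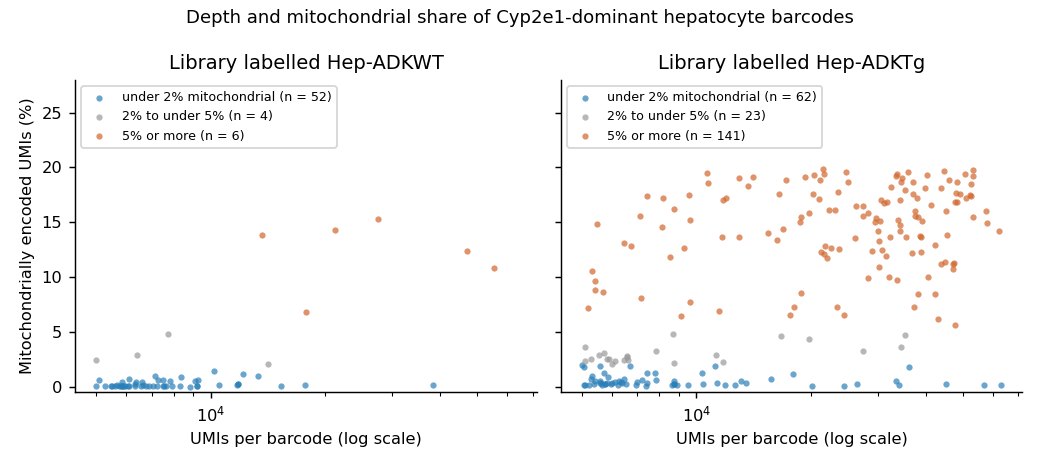
Percentage of UMIs from mitochondrially encoded genes (vertical axis) against UMIs per barcode (horizontal axis, log scale) for each member, coloured by mitochondrial share, 1 panel per library. In the library labelled Hep-ADKWT 52 of 62 points lie under 2%, and in that labelled Hep-ADKTg 141 of 226 lie at 5% or more.

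Several gene groups differed between poor and rich members within each library. Of 2300 genes entered, 1564 in the library labelled WT and 1730 in that labelled Tg were higher in poor members, with medians of 0.46 and 0.39. Of nuclear-encoded respiratory chain subunits, 48 of 50 were higher in each, with medians of 0.75 in the library labelled WT and 0.56 in that labelled Tg on the log2 scale, poor over rich. Heat shock genes were higher in 9 of 9 (medians 1.06 and 0.74). Secreted plasma protein genes were lower in 33 and 28 of 33 (medians -1.32 and -0.31), and endoplasmic reticulum (ER) chaperone genes in 12 and 13 of 13 (medians -1.21 and -0.57). The MUP genes (major urinary proteins) had medians of -1.27 and -0.13 and bile acid genes -1.30 and -0.05, and interferon (-0.46 and 0.25) and immediate early genes (-0.27 and 0.15) had opposite signs. Since the share of poor members differs between the libraries, values within poor and within rich members are given beside the pooled ones for the lists and leading genes. The rich WT value rests on 6 barcodes.

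Members made up 36.9% (29.6 to 44.7) of the hepatocyte barcodes of the library labelled WT and 19.7% (17.5 to 22.2) of those of the library labelled Tg. Among mitochondria-poor hepatocyte barcodes the shares were 59.8% (48.7 to 70.1) and 48.4% (39.5 to 57.4). Among the mitochondria-rich they were 7.79% (2.91 to 16.2) and 14.5% (12.4 to 16.9), so the direction turned. Poor barcodes were 87 of the 168 hepatocyte barcodes in the library labelled WT and 128 of 1145 in that labelled Tg. Their part in the pooled difference was not tested.

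The marker genes other than Glul were those of the pericentral zone. Cyp1a2, which oxidises caffeine and many drugs, stood at 403 and 736 CPM in members. In Cyp2f2-dominant barcodes it stood at 37.9 CPM in the library labelled WT. Oat stood at 1373 and 833 CPM in members, and at 16.4 and 13.4 CPM in mitochondria-rich Cyp2f2-dominant barcodes. All 15 hepatocyte markers were detected, but members were chosen for their hepatocyte genes, so this is no independent check of cell type. Of 23 genes of a pericentral list that entered and were not in the rule, 22 and 23 were higher in members than in Cyp2f2-dominant barcodes. They passed 2-fold in 17 of 23 and 20 of 23, where 23.1% and 3.39% of all entered genes did. These cells were chosen on 2 genes of the same contrast, so the figures describe the selection.

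Genes were ranked by the smaller of the 2 libraries' ratios of members over Cyp2f2-dominant barcodes. Poor and rich barcodes were pooled for this ranking. Mitochondria-poor barcodes were 83.9% and 27.4% of members but 22.8% and 5.25% of Cyp2f2-dominant barcodes, and their part in the ranking was not tested. The 10 highest were Oat, Cyp2c29, Rgn, Mup17, Cyp2c50, Lect2, Cyp2c54, Cyp2c37, Cyp1a2 and Gulo. Rgn encodes regucalcin, a lactonase, Gulo the last enzyme of vitamin C synthesis, and Lect2 a secreted hepatokine, while the Cyp2c genes encode P450 enzymes of close sequence. Lect2 stood at 133 and 205 CPM in members and at 0.668 and 5.73 CPM in mitochondria-rich Cyp2f2-dominant barcodes. The 10 lowest were Hal, Gls2, Mup20, Acly, Apoc2, Sfxn1, Mup21, Gldc, Hpx and Lcn2. Hal and Gls2 begin the breakdown of histidine and glutamine. Hal stood at 85.5 and 88.2 CPM in members, against 576 and 521 CPM in mitochondria-rich Cyp2f2-dominant barcodes. The MUP family was on both sides: Mup17 was 18.2-fold and Mup20 0.155-fold in members relative to Cyp2f2-dominant barcodes of the library labelled WT. Within poor barcodes of that library Mup17 was 9.03-fold and Mup20 0.197-fold, and within rich ones 36.0-fold and 0.274-fold.

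**Figure D2:**
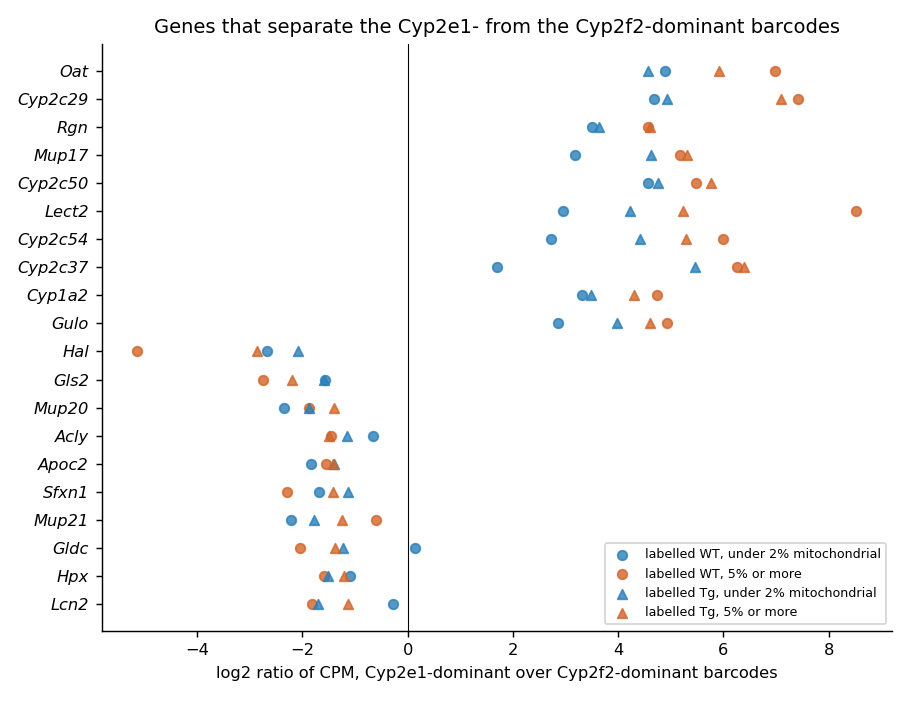
log2 ratio of CPM in members over Cyp2f2-dominant barcodes for the 10 highest and 10 lowest genes; circles are the library labelled WT, triangles that labelled Tg, and colours separate mitochondria-poor from mitochondria-rich barcodes. All points of the 10 highest lie above 0, and those of the lowest lie below 0 apart from Gldc in mitochondria-poor barcodes of the library labelled WT. Lect2 and Gulo were not seen in the poor Cyp2f2-dominant barcodes of the library labelled WT, nor Cyp2c37 in those of the library labelled Tg, and these points are computed against a floor of 3 counts.

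The members were not uniform. Splitting them at 200 CPM of Oat, a value chosen after seeing the data, put 35 of 52 poor and 4 of 6 rich members of the library labelled WT in the Oat-high class. In the library labelled Tg it was 44 of 62 and 106 of 141. The share of Oat-high barcodes was thus 67.3% (52.9 to 79.7) and 71.0% (58.1 to 81.8) in poor members. At their depth the limit lies at few UMIs: poor Oat-low members held 10 Oat UMIs in 17 barcodes (WT) and 14 in 18 (Tg). The part of UMI sampling in this split was not tested. Mup17 went with Oat: among Oat-low members of the library labelled WT, 0 of 17 poor and 0 of 2 rich reached 1000 CPM of Mup17, while 19 of 35 and 4 of 4 Oat-high ones did. In the library labelled Tg, Oat-low members reached it in 11 of 18 and 22 of 35. Summed over poor Oat-low members, Mup17 stood at 68.6 (32.9 to 126) and 1684 (1521 to 1859) CPM.

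**Figure D3:**
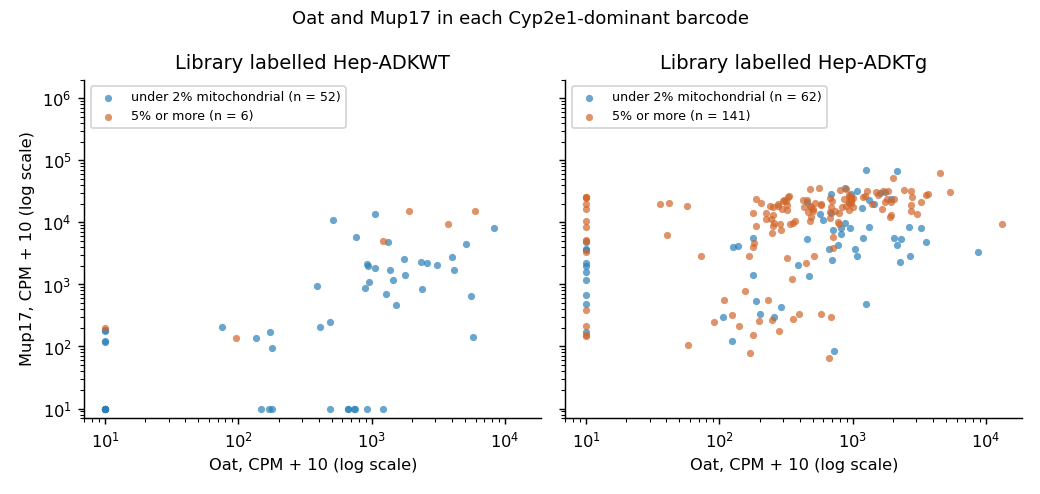
CPM of Mup17 against CPM of Oat, each with 10 added and on log scales, for every mitochondria-poor or mitochondria-rich member, 1 panel per library. In the library labelled Hep-ADKWT no member under 200 CPM of Oat reaches 1000 CPM of Mup17, and in that labelled Hep-ADKTg 11 of 18 poor and 22 of 35 rich ones do.

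Oat-high and Oat-low members differed in the other zone genes as well. In rich members of the library labelled Tg, Lect2 stood at 244 CPM in Oat-high and 134 CPM in Oat-low barcodes, and Cyp2c29 at 1044 and 330.4 CPM. Slc1a2, a glutamate transporter of the cells next to the central vein, had 176 UMIs in the 106 Oat-high and 0 in the 35 Oat-low rich members, where 0 UMIs allow up to 2.88 CPM by the 3-count floor. Alb, the plasma albumin gene, went the other way at 9235 and 13612 CPM. Oat was used for the split, so these values are a description.

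Glul differed most by 1 barcode. It stood at 42.8 (28.4 to 61.8) and 208 (196 to 221) CPM, but 724 of the 1058 Glul UMIs of the library labelled Tg (68.4%) lay in 1 barcode. Without the top barcode of each library Glul stood at 39.5 and 66.3 CPM. Mitochondria-poor members gave 47.8 and 24.1 CPM, which turns the direction. After each barcode was thinned to 5000 UMIs, 21.0% (11.7 to 33.2) and 20.4% (15.3 to 26.2) of members had a Glul UMI, before thinning 33.9% and 41.6%. Lymphocytes at that thinned depth had 14.5% and 15.6%. The members' intervals reach down to or near those lymphocyte shares, and 4 barcodes held 80.3% of the Glul UMIs of the library labelled Tg.

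The comparison of the libraries asks which genes of these hepatocytes differ with the adenosine kinase transgene. With 1 library per genotype there was no test, and a gene was counted when it differed at least 2-fold. Of 2300 genes with a mean of at least 50 CPM, 228 were higher (9.91%) and 293 lower (12.7%) in the library labelled Tg. The balance depended on the scaling: TMM factors gave 401 higher and 71 lower, and DESeq2 size factors 393 and 77. Within poor members 323 were higher (14.0%) and 86 lower (3.74%), of 2299 with a value. Within rich members 70 were higher (3.04%) and 49 lower (2.13%). A gene low in 1 library could enter through its level in the other. Apcs, Mug2 and Neat1, described below, stood at 42.8, 32.1 and 29.0 CPM in the library labelled WT and entered in this way. The list counts of direction given below carry this limit. The median log2 ratio over all genes was -0.42 in the pool, -0.19 in poor and -0.10 in rich members, and 668 of 2300, 862 of 2299 and 919 of 2300 genes were above 0. Of the 2300 entered genes, 23 higher and 13 lower ones were past 2-fold in the same direction in the pool, in poor and in rich members. The pool holds the same poor and rich barcodes, so its value is no separate result. The 23 include Cyp2f2, a gene of the rule with 1 UMI in rich WT-labelled members, and the 13 include the haemoglobin genes Hbb-bt, Hbb-bs and Hba-a2, which go with the erythroid values given below. In Cyp2f2-dominant barcodes pooled, which are mostly mitochondria-rich, 17 genes were higher (0.739%) and 21 lower (0.913%).

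Leaving out each of the 6 rich WT-labelled members in turn gave 75 to 105 genes higher and 48 to 92 lower, so the counts in rich members depend on single barcodes. The highest counts came without the third and the second of them by depth.

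**Figure D4:**
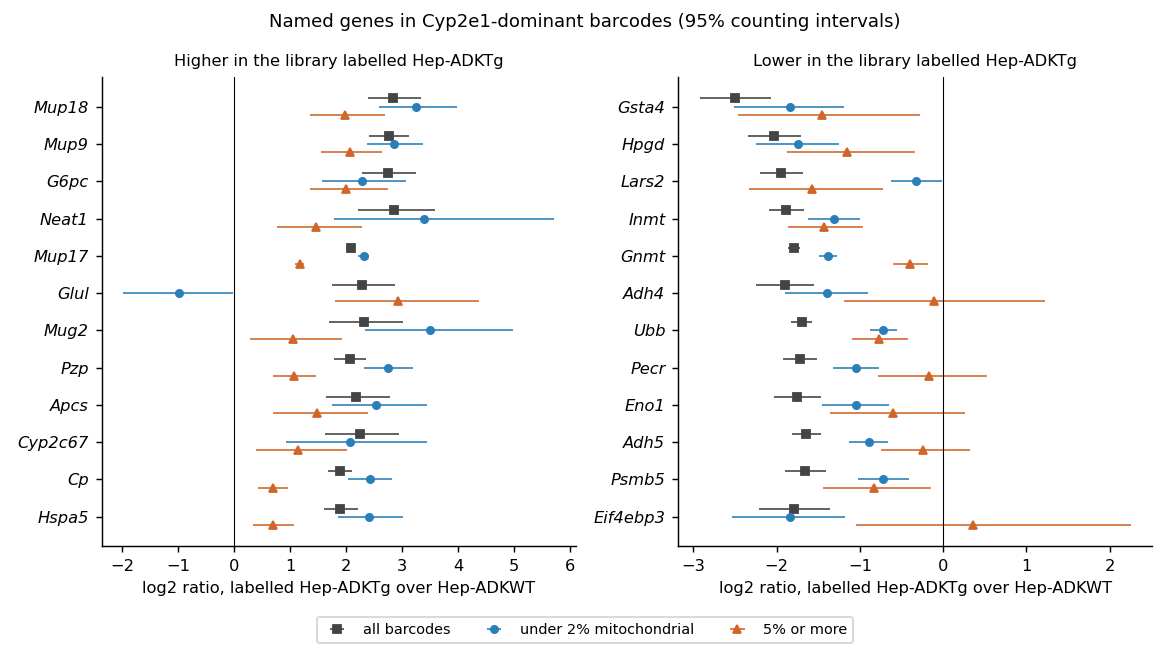
log2 ratio of the library labelled Hep-ADKTg over that labelled Hep-ADKWT for the 12 highest and 12 lowest genes of the pooled members; squares are all members, circles mitochondria-poor and triangles mitochondria-rich, with 95% counting intervals. Glul reverses between poor and rich members, and Eif4ebp3 lies above 0 in rich members.

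The MUP genes, which encode pheromone-binding proteins secreted into urine, were higher in the library labelled Tg. All 13 that entered were higher in the pool, 11 of them past 2-fold, with a median of 1.35 against -0.42 over all genes. Within poor members 13 of 13 passed 2-fold (median 1.72), and within rich members 12 of 13 were higher and 3 passed it (median 0.63). Those 3 were Mup9, Mup17 and Mup18, and they also led the pool. Among all entered genes 9.91% were past 2-fold higher in the pool, 14.0% in poor and 3.04% in rich members.

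Mup18 stood at 61.1 (43.6 to 83.2) and 438 (420.1 to 457) CPM in the pool, a log2 ratio of 2.84 (2.39 to 3.33). In poor members it stood at 45.6 and 432 CPM and in rich members at 109.5 and 434 CPM. Mup9 stood at 104 and 705 CPM in the pool, 86.5 and 628 CPM in poor and 164 and 687 CPM in rich members. Its intervals did not overlap between the libraries in any of these. Mup17 stood at 3339 and 14227 CPM, and at 6376 and 14347 CPM in rich members. Without 1 of the 6 rich WT-labelled barcodes, one with 6 Mup17 UMIs of 46960 and with 189 S100a8 and 138 S100a9 UMIs (neutrophil transcripts), the rich log2 ratio of Mup17 moved from 1.17 to 0.75. In Oat-low members Mup9 stood at 68.6 and 82.0 CPM (poor) and 147 and 92.2 CPM (rich), while in Oat-high members it stood at 95.5 and 874 CPM and at 175 and 891 CPM. The WT-labelled Oat-low values of Mup9 rest on 10 UMIs in poor and 10 UMIs in rich members. Their intervals were 32.9 to 126 and 70.3 to 270 CPM. Whether the Mup9 difference depends on the Oat class was not tested. In mitochondria-rich Cyp2f2-dominant barcodes Mup18 stood at 26.0 and 139.9 CPM and Mup9 at 30.1 and 46.0 CPM.

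The promoters of these 3 genes are shown because their sequences are close, as are their transcripts, and reads of near-identical copies may be split between them. Capitals mark TATATAA, searched on either strand and found in 3.04% of promoters of 250 bases. The windows are chr4:60421953-60422202 (minus strand), chr4:61595833-61596082 (minus strand) and chr4:61674095-61674344 (minus strand).
Mup9: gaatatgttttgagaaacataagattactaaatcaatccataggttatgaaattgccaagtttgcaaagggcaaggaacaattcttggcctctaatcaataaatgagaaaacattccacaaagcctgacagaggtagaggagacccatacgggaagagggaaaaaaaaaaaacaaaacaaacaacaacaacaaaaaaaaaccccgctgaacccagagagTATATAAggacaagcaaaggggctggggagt
Mup17: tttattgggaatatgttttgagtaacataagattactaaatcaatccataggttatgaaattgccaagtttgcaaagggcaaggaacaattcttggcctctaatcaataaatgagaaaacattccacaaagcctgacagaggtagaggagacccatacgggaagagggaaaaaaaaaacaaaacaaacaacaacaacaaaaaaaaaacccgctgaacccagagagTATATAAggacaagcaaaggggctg
Mup18: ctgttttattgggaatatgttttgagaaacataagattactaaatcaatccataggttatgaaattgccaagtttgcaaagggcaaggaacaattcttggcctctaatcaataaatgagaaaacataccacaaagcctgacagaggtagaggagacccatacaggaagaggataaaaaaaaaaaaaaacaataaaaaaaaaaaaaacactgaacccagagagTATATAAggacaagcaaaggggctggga
Aligned end to end, Mup9 and Mup17 were identical at 93.02% of positions, Mup17 and Mup18 at 92.2%, and Mup9 and Mup18 at 88.5%. Mup3 and Mup11, abundant members of the same family, stood at 6839 and 14701 CPM and at 7512 and 20946 CPM in the pool. Their log2 ratios in rich members were 0.34 and 0.54.

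Genes for other secreted proteins stood higher in the members labelled Tg, past 2-fold mainly in the pool and in poor members. Of 33 secreted plasma protein genes, 33 were higher in the pool (17 past 2-fold, median 1.06), 33 in poor (27 past 2-fold, median 1.31) and 27 in rich members (1 past 2-fold, median 0.23). Of 24 acute phase genes, which rise in inflammation, 20 were higher in the pool (14 past 2-fold, median 1.13), 22 in poor (15 past 2-fold, median 1.57) and 21 in rich members (2 past 2-fold, median 0.48). The shares of all entered genes past 2-fold higher were 9.91%, 14.0% and 3.04% in the pool, poor and rich members. Apcs, the serum amyloid P gene, stood at 42.8 and 194 CPM in the pool, 31.9 and 186 CPM in poor and 71.2 and 198 CPM in rich members. Its rich log2 ratio of 1.48 rests on 13 UMIs in the library labelled WT and ranged from 1.07 to 2.75 with each of the 6 barcodes left out, the highest without the barcode with neutrophil transcripts. The fibrinogen gene Fgb stood at 1064 and 3229 CPM in the pool, 783 and 2639.6 CPM in poor and 1851 and 3332 CPM in rich members. Saa2, a serum amyloid A gene close in sequence to Saa1, stood at 4228 and 3621 CPM and differed little in poor members, at 4609.7 and 4754 CPM. Pzp and Mug2, 2 related protease inhibitor genes of the blood, had log2 ratios of 2.07 and 2.32 in the pool, 2.75 and 3.50 in poor and 1.06 and 1.05 in rich members. Cp, the copper carrier ceruloplasmin, had 1.89, 2.42 and 0.69. The hepatocyte genes of the membership rule also supplied more RNA to other cells' barcodes in the library labelled Tg. In lymphocyte barcodes they made up a median of 0.0987% (WT) and 0.642% (Tg) of UMIs. The part of such stray hepatocyte RNA in the secreted protein and MUP differences, including Mup17 in Oat-low members, was not tested.

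ER chaperone genes, which fold secreted proteins, were higher in 13 of 13 in the pool (10 past 2-fold, median 1.35), 13 of 13 in poor members (9 past 2-fold, median 1.5) and 12 of 13 in rich members (0 past 2-fold, median 0.45). All entered genes passed 2-fold higher in 9.91%, 14.0% and 3.04%. Hspa5, the main ER chaperone (BiP), stood at 144 and 535 CPM in the pool, 66.0 and 352 CPM in poor and 345 and 557 CPM in rich members. Hsp90b1 and Pdia3 had log2 ratios of 1.86 and 1.78 in the pool, 2.35 each in poor and 0.70 and 0.61 in rich members. Within poor members alone the medians of the secreted protein and chaperone lists were larger than in the pool.

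**Figure D5:**
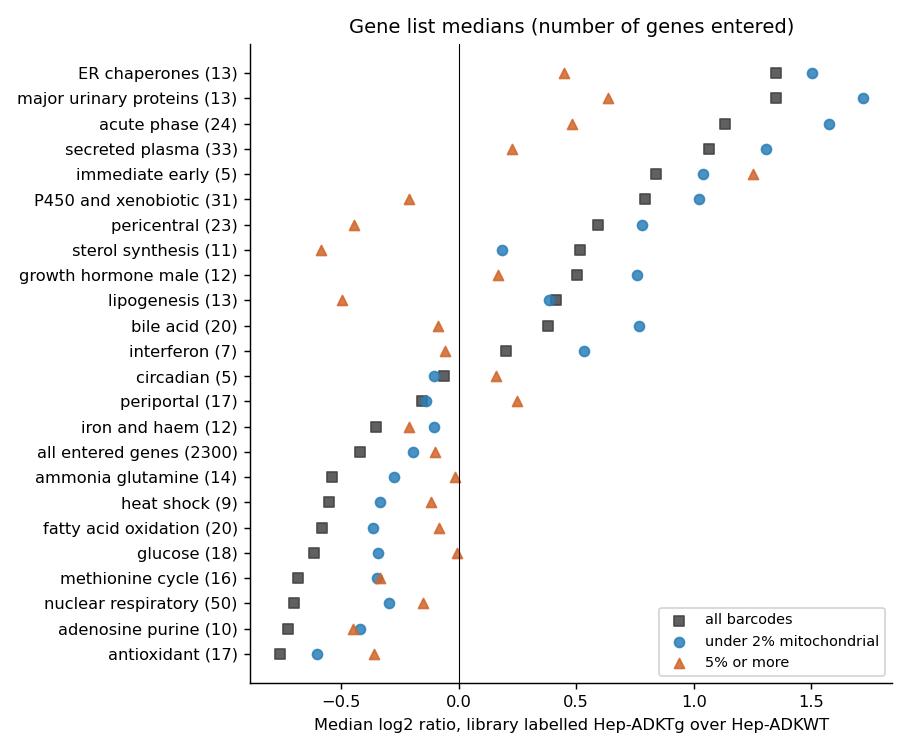
Median log2 ratio of the library labelled Hep-ADKTg over that labelled Hep-ADKWT for gene lists of at least 5 entered genes, with the number entered in brackets; squares are all members, circles poor and triangles rich. The P450, pericentral, sterol synthesis, lipogenesis, bile acid and interferon lists lie above 0 in the pool and below 0 in rich members. The MUP, ER chaperone, acute phase and secreted lists stay above 0. No direction is read from the immediate early list, most of whose genes did not enter.

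G6pc, the glucose-releasing enzyme of gluconeogenesis, was higher at 56.5 (39.8 to 77.9) and 379 (362 to 397) CPM in the pool, 41.0 and 199 CPM in poor and 104 and 418 CPM in rich members. In mitochondria-rich Cyp2f2-dominant barcodes it stood at 369 and 372 CPM, and in mitochondria-poor ones at 99.9 and 219 CPM. Of the 12 highest genes of the pooled members, 10 were also higher in poor Cyp2f2-dominant barcodes (median log2 ratio 1.01). In rich Cyp2f2-dominant barcodes 7 of these 12 were higher (median 0.096). Pck1, an earlier rate-limiting step of that pathway, stood at 2052 and 1844 CPM in the pool. In poor members it stood at 2421 and 2209 CPM and in rich members at 1161 and 1759 CPM. Eno1, a glycolytic enzyme, stood at 224 and 66.6 CPM in the pool, 266 and 128 CPM in poor and 82.2 and 54.0 CPM in rich members. The list of glucose genes as a whole did not follow G6pc, with 2 of 18 higher in the pool (median -0.61) and 9 of 18 in rich members.

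Immediate early genes, which respond to stimulation or cell handling, entered with 5 of 21 members. A gene low in the library labelled WT could pass the minimum through its level in that labelled Tg, so no count of direction is read from these 5. Jun stood at 22.9 and 102 CPM in the pool and 38.3 and 105 CPM in rich members, and Dusp1, a phosphatase of MAP kinases, at 39.7 and 148 CPM and at 43.8 and 151 CPM. Fos, under the minimum, stood at 18.3 and 22.1 CPM in the pool with overlapping intervals, and at 32.9 and 22.6 CPM in rich members, a log2 ratio of -0.54. The nuclear RNAs Neat1 and Malat1 stood at 29.0 and 210.3 CPM and at 879 and 2019.8 CPM in the pool. In poor members they stood at 6.83 and 72.2 CPM and at 692 and 1730.3 CPM. In rich members they stood at 87.6 and 243 CPM and at 537 and 1959 CPM. Part of these values rests on few UMIs: 19 for Neat1 (3 of them in poor members) and 15 for Jun in the library labelled WT.

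By plain totals, Gsta4, Inmt, Hpgd, Nr1i3, Akr1c20, Acaa1b and Me1 were past 2-fold lower in the library labelled Tg in the pool, in poor and in rich members. In the pool Nr1i3 and Me1 fell under 2-fold with TMM or DESeq2 factors. Of 53 genes picked for this report and past 2-fold in the pool, 47 stayed past it with either scaling. The 7 genes named first are given by plain totals below. These genes were chosen after their values were seen and stand for no gene group. Nr1i3 belongs to the P450 and conjugation list, of which 23 of 31 genes were higher in the pool and in poor members and 11 in rich members. Me1 belongs to the lipogenesis list, with medians of 0.42, 0.38 and -0.50. Gsta4, a glutathione transferase for lipid aldehydes, stood at 124 and 21.9 CPM in the pool, 143 and 40.1 CPM in poor and 49.3 and 17.9 CPM in rich members. Inmt, an amine methyltransferase, stood at 424 and 115 CPM in the pool, 494 and 199 CPM in poor and 263 and 97.7 CPM in rich members. Hpgd, which inactivates prostaglandins, stood at 194 and 47.5 CPM in the pool, 237 and 70.9 CPM in poor and 93.1 and 41.7 CPM in rich members. Nr1i3, the xenobiotic receptor CAR, stood at 104 and 46.9 CPM, with log2 ratios of -1.12 in poor and -1.21 in rich members. Akr1c20 and Acaa1b, an aldo-keto reductase and a peroxisomal thiolase, had log2 ratios of -1.55 and -1.39 in the pool, and Me1, the malic enzyme that supplies NADPH, -1.32. In poor members these 3 stood at -1.07, -1.12 and -1.08, and in rich members at -1.36, -1.05 and -1.42. Without the fifth of the 6 rich WT-labelled barcodes by depth, Hpgd moved from -1.16 to -0.39. Nr1i3 moved from -1.21 to -0.91 without the shallowest. In mitochondria-rich Cyp2f2-dominant barcodes Hpgd stood at 12.0 and 11.6 CPM. The log2 ratios of Gsta4, Inmt, Nr1i3, Akr1c20, Acaa1b and Me1 there were -0.44, -0.85, 0.14, -0.50, -0.33 and -0.88. In mitochondria-poor Cyp2f2-dominant barcodes those 6 genes had -0.74, -1.31, -2.15, -0.74, -1.19 and -1.45. Hpgd had 0.91 in the latter, on 4 UMIs in the library labelled WT.

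Other named genes were past 2-fold lower in the pool and under 2-fold within poor or within rich members. Gnmt, the glycine methyltransferase that uses up S-adenosylmethionine, stood at 3271 and 946 CPM in the pool but 1095 and 833 CPM in rich members. Adh4 and Adh5, alcohol dehydrogenases, stood at 159 and 42.5 CPM and at 589 and 188 CPM, with log2 ratios of -0.12 and -0.24 in rich members. Pecr, a peroxisomal reductase, and Eif4ebp3, a translation inhibitor, had log2 ratios of -1.72 and -1.80 in the pool and -0.17 and 0.35 in rich members. Ubb, a ubiquitin gene, and Psmb5, a proteasome subunit, had -1.70 and -1.66 in the pool and -0.77 and -0.83 in rich members. Lars2, a mitochondrial leucyl-tRNA synthetase whose counts can hold mitochondrial ribosomal RNA reads, stood at 281 and 72.9 CPM in the pool and at 358 and 286 CPM in poor members.

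Adenosine and purine genes were lower in 7 of 10 entered genes in the pool and in poor members and 8 of 10 in rich members (medians -0.73, -0.42 and -0.45). Of all entered genes 1632 of 2300, 1437 of 2299 and 1381 of 2300 were lower, so the adenosine counts lie near that background. Aprt, which salvages adenine, stood at 159 and 66.9 CPM, with log2 ratios of -1.18 in poor and -0.90 in rich members. In the methionine cycle, where S-adenosylhomocysteine hydrolysis yields adenosine, 13 of 16 were lower in the pool, 12 in poor and 12 in rich members (medians -0.68, -0.35 and -0.34, against -0.42, -0.19 and -0.10 over all genes), also near the background. Mat1a, which makes S-adenosylmethionine, had log2 ratios of -0.91, -0.53 and -0.58 in the pool, poor and rich members. Bhmt, which remethylates homocysteine, had -1.12, -0.69 and -0.44, and Ahcy, which releases adenosine, had -0.91, -0.72 and -0.33.

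The zone programme itself gave no single direction. Of 23 pericentral genes, 16 stood higher in the Tg-labelled library in the pool (median 0.59), 15 in poor members (median 0.78) and 5 in rich members (median -0.44). Of 31 P450 and xenobiotic genes, 23, 23 and 11 were higher (medians 0.79, 1.02 and -0.21). Cyp1a2 stood at 159 and 496 CPM in poor members and at 1057 and 775 CPM in rich members. Oat was lower in each comparison, at 1177 and 912 CPM in poor and 2065 and 811 CPM in rich members. Leaving out each rich WT-labelled member gave Oat log2 ratios of -1.76 to -0.71. Rgn was lower likewise, with log2 ratios of -1.21, -0.82 and -0.51 in the pool, poor and rich members. Cyp2e1, a gene of the rule, stood at 1722 and 2851 CPM in poor and 4113 and 3728 CPM in rich members. Periportal list genes had medians of -0.15, -0.14 and 0.25.

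Among 20 bile acid genes 12 were higher in the pool, 11 in poor (9 past 2-fold) and 8 in rich members (medians 0.38, 0.77 and -0.09). In poor members 14.0% of all entered genes were past 2-fold higher. Cyp7b1, an oxysterol hydroxylase, stood at 185 and 647 CPM in the pool, 100.2 and 408 CPM in poor and 416 and 687 CPM in rich members. Cyp7a1, the rate-limiting enzyme of bile acid synthesis, stood at 44.3 and 35.0 CPM in the pool, 13.7 and 25.4 CPM in poor and 126 and 36.6 CPM in rich members. Nuclear-encoded respiratory genes were lower in 49 of 50 in the pool, 44 in poor and 37 in rich members (medians -0.70, -0.30 and -0.15). Antioxidant genes were lower in 14, 15 and 13 of 17 (medians -0.76, -0.60 and -0.36), where 1632, 1437 and 1381 of about 2300 genes were lower in all. Of 18 proliferation genes 0 reached the minimum.

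Markers of most other cell types were low in the members, but erythroid and neutrophil markers were not in the library labelled WT. Kupffer cell markers were at 0 in 9 of 10 and 7 of 10, summing to 1.53 and 1.38 CPM, and stellate cell and fibroblast markers were at 0 in 8 of 8 and 1 of 8. Sinusoidal endothelial markers summed to 93.1 and 57.7 CPM and T and NK lymphocyte markers to 99.2 and 52.0 CPM. Neutrophil markers summed to 560 and 14.4 CPM (1988 and 15.2 CPM in rich members), and 363 of the 367 UMIs of the library labelled WT lay in its 6 rich members. One of those barcodes held 189 of 193 S100a8 UMIs. Haemoglobin and other erythroid markers summed to 8357 and 251 CPM, and 1 WT-labelled member held 43.5% erythroid UMIs. More than 0.5% of UMIs from other cells' markers were found in 2 and 10 members. Without these, 260 genes were higher and 339 lower by 2-fold in the pool. The part of other cells in the other differences was not tested.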

How the data were processed

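Single-cell RNA was captured with 10x Genomics v3 chemistry from collagenase-digested livers, per the labels' protocols. The authors deposited 2 matrices of raw UMI counts, whole numbers for 32285 genes. Per the submitters' processing notes, Cell Ranger 6.1.2, Seurat 4.0.2 and R 4.1.0 were used with GRCm38 (mm10); the matrix headers name Cell Ranger 5.0.1. The series text names ambient RNA removal, but the deposited counts are whole and were treated as uncorrected. Library totals were 97135016 and 96481752 UMIs. No doublet caller was run here; barcodes with other cells' markers were counted and left out as an alternative.

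UMIs were summed over member barcodes and scaled to CPM. Intervals are exact Poisson for CPM, exact conditional binomial for ratios and Clopper-Pearson for shares, at 95%. UMIs of 1 library are not independent samples of mice, so intervals cover counting error only. Where a library held 0 UMIs, a floor of 3 counts was used. Cells are not replicates, and no p-value is given. A gene entered at a mean of 50 CPM over the 2 libraries. Named genes were the 12 highest and 12 lowest by ratio with 10 CPM added, with a UMI in at least 20% of members of either library, leaving out predicted, mitochondrial, ribosomal, haemoglobin and immunoglobulin genes, genes of the rule and other cells' markers. From each of 26 lists, up to 4 genes with the largest ratios and up to 2 best known could also be named. Zone genes were the 10 highest and 10 lowest by the smaller of the libraries' ratios. Genes past 2-fold in poor and rich members, Slc1a2, S100a8 and the Oat classes were chosen after their values were seen. So were the divisions at 2% and 5% mitochondrial UMIs. Members and lists were chosen with earlier results of these data known. Where a symbol was used by more than 1 gene, the first was taken.

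Promoters came from RefSeq (GRCm38.p6) and gene positions from GENCODE M21. The fold computation was tested on simulated counts of the pooled comparison: of 200 among 2174 genes changed 3-fold, 99.5% passed 2-fold. The simulated counts held counting error only and no variation between barcodes, so they check the computation and not the reliability of the calls. Tables were computed with pandas 2.3.3, scipy 1.17.1 and numpy 2.4.6 in Python 3.11.15, and drawn with matplotlib 3.10.9. In R 4.3.3, edgeR 4.0.16 (TMM factors) and DESeq2 1.42.0 (size factors) gave other scalings only. Other depth, purity and minimum settings were also tried.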

Additional observations from a re-analysis of the deposited data

Results flagged for a closer look

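Genes picked for this report were searched for opposite directions of Tg over WT in Cyp2e1-dominant and Cyp2f2-dominant mitochondria-rich barcodes. Those given here had each counting interval clear of 0. Many of the picked genes were chosen for their ratios in these data. The other entered genes were not searched, so no share over all genes is given. Alb is a gene of the rule. The difference between the 2 kinds of barcode was not tested, and the library labelled Hep-ADKWT has 6 Cyp2e1-dominant barcodes there. The log2 ratios of Tg over WT, Cyp2e1-dominant first, were -0.29 and 0.19 for Adk, 2.93 and -0.67 for Glul, and 1.15 and -1.995 for Cyp2c67, a P450 gene with near-identical relatives. They were 2.13 and -0.14 for Hal, 0.35 and -0.029 for Hpx, and 0.44 and -0.32 for Alb. Mug2 had 1.05 and -0.29, Jun 1.46 and -0.66, and Neat1 1.47 and -0.13. Psmb5 had -0.83 and 0.29, and Cyp8b1, the enzyme of cholic acid synthesis, -0.56 and 0.60. Without 1 rich WT-labelled barcode, the fifth by depth, the first ratio of Psmb5 was -0.04. Hal rests on 3 UMIs, Glul on 6 and Jun on 7 in the library labelled Hep-ADKWT.

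Beyond the mitochondrial limit of 20%, 94 more hepatocyte barcodes of the library labelled Hep-ADKTg held more Cyp2e1 than Cyp2f2 UMIs, against 4 in that labelled Hep-ADKWT. They enter no comparison.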

How the results depend on the processing

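No paired analysis was possible because each genotype has 1 library. Requiring hepatocyte genes at 20% of UMIs left 0 barcodes in each library and was not run. Counts of genes higher and lower by 2-fold were 83 and 103 with at least 10000 UMIs per barcode, 45 and 61 at 5% or more mitochondrial UMIs, 376 and 531 at a minimum of 20 CPM, 88 and 102 at 200 CPM, and 1052 and 2092 with no minimum. TMM factors gave 401 and 71, and DESeq2 size factors 393 and 77. These scalings moved the median of all genes from -0.42 to -0.04 and -0.07. Of the calls, 43.8% were higher in the library labelled Hep-ADKTg by plain totals, 84.96% by TMM, 83.6% by DESeq2 factors and 64.1% by totals without mitochondrial genes. Under 2% mitochondrial UMIs 264 were higher and 94 lower, and totals without mitochondrial genes gave 172 lower. Each setting reapplied the gene minimum to its own barcodes, so that 2432 genes entered under 2% and 2134 at 5% or more, and the counts differ from those within poor and rich members above.

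The pericentral list median (0.59) was 1.14 at 5000 to 20000 UMIs, 1.27 at 10% mitochondrial UMIs or less, -0.45 at 5% or more, 1.04 as a mean over barcodes, 1.12 after thinning, 0.96 with TMM and 0.93 with DESeq2 factors. The Adk log2 ratio (-0.71) was -0.40 at 10000 UMIs or more, -0.54 at 5000 to 20000, -0.43 and -0.29 in mitochondria-poor and mitochondria-rich members, -0.35 with TMM, -0.37 with DESeq2 factors and -0.58 by totals without mitochondrial genes. It was below 0 in all of these. The share of Cyp2e1-dominant barcodes, WT then Tg, was 19.5% and 15.2% at 10000 UMIs or more, 55.9% and 33.5% at 5000 to 20000, 60.6% and 35.1% at 10% mitochondrial UMIs or less, 59.8% and 48.4% under 2%, and 7.79% and 14.5% at 5% or more. With Cyp2e1 at least 4 times Cyp2f2 it was 15.3% in the library labelled Hep-ADKTg. Reversed values were those of S100a9 (1.63 at 5000 to 20000 UMIs, and 1.55 at 10% mitochondrial UMIs or less and under 2%), Glul (-0.99) and Slc1a2 (-0.77) under 2%, and Eif4ebp3 (0.35) at 5% or more. The cause of these changes was not tested. The divisions at 2% and 5% mitochondrial UMIs were chosen after seeing the data. Depth limits the library labelled Hep-ADKWT most, with 654921 member UMIs and 6 mitochondria-rich barcodes.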
